A study of Mus musculus with 12 samples.

Results

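The genes described here are 37 mouse genes of DNA replication and of the passage from G1 into S phase, chosen by symbol for their roles in replication licensing, the replication fork, nucleotide supply and the E2F-driven programme. They were matched to the Ensembl identifiers of the count table through a GENCODE annotation of genome build GRCm38. All 37 were among the 14175 genes tested, out of 29620 genes with counts in any library. They were followed in C2C12 myotubes, which form by fusion of a clonal line of mouse myoblasts. After 5 days of differentiation in 2% horse serum, the medium was exchanged for 24 h. The control group (6 libraries, numbered 1 to 6) received 4% horse serum, and the other group (6 libraries, numbered 7 to 12) received 4% STEM, a cell-free mixture of factors that human embryonic stem cells release once they have begun to differentiate. STEM was given in place of the horse serum, so the addition of STEM and the removal of serum cannot be told apart. RNA was collected by well, no source used here says whether the wells were independent cultures, and p-values therefore measure the spread between these libraries.

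A cell licenses its replication origins in G1, when Cdc6 and Cdt1 load the ring-shaped MCM helicase onto DNA. On entry into S phase, Cdc45 and the GINS complex join MCM to form the active helicase, primase and polymerase alpha lay down primers, and the sliding clamp PCNA holds the polymerases on the template. The E2F transcription factors, held in check by the retinoblastoma family of pocket proteins, drive many of these genes, and this programme is shut down when myoblasts leave the cell cycle and fuse. Cultures of C2C12 myotubes also hold mononucleated cells that have not fused. In bulk RNA, fewer cells of a type and less RNA per cell cannot be told apart.

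Promoter sequences are shown for 4 of the genes to let the E2F-type element be seen beside the values that follow. RefSeq promoter entries of build GRCm38.p6 were matched by symbol to 30 of the 37 genes, and the 250 bases before each start were searched on both strands for TTTGGCGC, TTTCCCGC, TTTGCCGC and TTTCGCGC, whose matches can overlap each other. A match was found in 9 of the 30 (30%), namely Mcm5, Mcm6, Mcm7, Cdc6, Gins3, Pola1, Rfc3, Uhrf1 and Dnmt1, against 2.157% of the 27025 genes of the promoter table and 3.931% of the 9922 tested genes found in it. The 37 genes were chosen in part for the E2F-driven programme, so the higher share may follow from that choice. In Dnmt1 the match lay in an entry inside the gene (chr9:20952574-20952873), while the entry at the start of the gene held 0. Of the 26 genes with an entry that were lower with STEM, 8 held a match, as did 1 of the 4 that were not called. The shorter motif CCAAT, which binds NF-Y, was found in 19 of the 30 (63.33%) and in 40.92% of the tested genes. A match is a description of the letters and does not show that a factor binds. The 4 genes shown are those with a match and the lowest p-values, and capitals mark the E2F-type matches. Each sequence is written 5′ to 3′ on the strand of the gene and ends at the base before the RefSeq start, and the Cdc6 sequence begins after an annotated exon of longer transcripts. In Mcm6 the first run of capitals holds 2 matches that overlap, 1 on each strand. The windows are chrX:93632156-93632405 for Pola1 (minus strand), chr17:56304063-56304312 for Uhrf1 (plus strand), chr11:98907982-98908150 for Cdc6 (plus strand) and chr1:128359706-128359955 for Mcm6 (minus strand). In GENCODE the Pola1 and Mcm6 windows lie upstream of the gene, and those of Uhrf1 and Cdc6 lie in introns of longer transcripts of the gene.
Pola1: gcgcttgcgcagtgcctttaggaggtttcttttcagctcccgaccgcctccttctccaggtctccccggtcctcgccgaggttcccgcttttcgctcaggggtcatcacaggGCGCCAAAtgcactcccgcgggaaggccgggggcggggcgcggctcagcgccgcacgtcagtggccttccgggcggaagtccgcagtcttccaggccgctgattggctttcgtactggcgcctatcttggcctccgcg
Uhrf1: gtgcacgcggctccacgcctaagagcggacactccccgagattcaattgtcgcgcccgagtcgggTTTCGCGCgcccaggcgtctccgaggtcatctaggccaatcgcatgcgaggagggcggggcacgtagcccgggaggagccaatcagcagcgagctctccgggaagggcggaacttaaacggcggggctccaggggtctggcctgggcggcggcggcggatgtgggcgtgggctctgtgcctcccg
Cdc6: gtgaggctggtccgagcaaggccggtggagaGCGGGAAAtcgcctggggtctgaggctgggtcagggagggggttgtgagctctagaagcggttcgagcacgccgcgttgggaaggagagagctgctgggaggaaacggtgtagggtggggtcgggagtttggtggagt
Mcm6: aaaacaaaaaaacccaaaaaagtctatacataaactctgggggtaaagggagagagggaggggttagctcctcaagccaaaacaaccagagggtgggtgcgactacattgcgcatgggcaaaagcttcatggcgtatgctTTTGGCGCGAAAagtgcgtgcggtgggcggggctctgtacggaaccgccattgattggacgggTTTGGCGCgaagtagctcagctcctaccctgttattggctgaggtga

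Depth was 13285472 to 18254882 counts in the horse serum libraries and 14909485 to 24536264 counts in the STEM libraries. Each of the 37 genes had between 17 and 3223 counts in a library, so the least expressed of them rest on few reads. The labelled myotubes expressed their defining markers, among them Acta1 (skeletal actin), which averaged 3819 ± 637 CPM in the horse serum group (SD, n = 6) and 3428 ± 218 CPM in the STEM group. CPM is the count of a gene scaled to the normalized total of its library. Horse serum library 6 stood apart. The summed level of 12 myotube markers was 7295 CPM in it, between 14423.5 and 15525.5 CPM in horse serum libraries 1 to 5 and between 11644.4 and 14670.8 CPM in the STEM libraries. The mean log2 CPM of the 37 genes was 4.59 in library 6 and 4.43 in library 1, against 4.04 to 4.14 in horse serum libraries 2 to 5 and 3.57 to 3.799 with STEM. Library 6 thus held the lowest level of myotube markers and the highest level of the replication genes, and its part in the results below was measured by leaving it out.

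**Figure D1:**
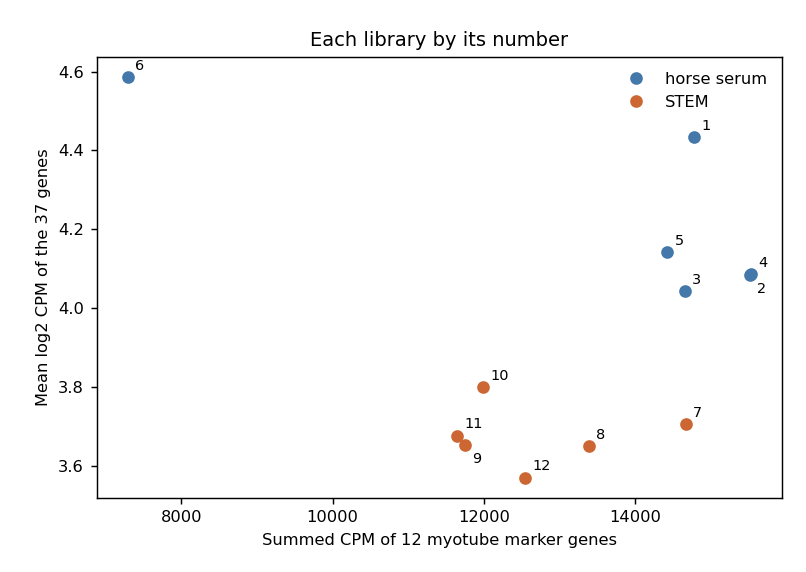
Each point is 1 library, labelled with its number, with the summed CPM of 12 myotube marker genes on the x axis and the mean log2 CPM of the 37 replication and G1/S genes on the y axis. Horse serum library 6 sits far to the left at 7295 CPM and at the top at 4.59, and the 6 STEM libraries lie between 3.57 and 3.799, below the 6 horse serum libraries.

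Replication and G1/S genes were lower with STEM. Of the 37 genes, 30 were lower and 0 higher at an adjusted p of at most 0.05 (quasi-likelihood test of edgeR, with Benjamini-Hochberg adjustment over the 14175 genes), against 17.4% lower and 18.9% higher among all genes tested. None had a positive fold change at an unadjusted p under 0.05, and DESeq2 and limma-voom also called 0 higher. The 30 falls lay between 13.1% for Rrm2 and 64.4% for Lig1. The median log2 fold change was -0.47, a level 27.6% lower, beside 0.01 for all genes tested, and 35 of the 37 fold changes were below 0. In 21 of the 37 genes every STEM library lay below every horse serum library, which held for 8.52% of all genes tested. For each of these 21 the exact permutation test on log2 CPM gave p = 0.00216 (two-sided), the smallest that 6 libraries against 6 allow. Full separation fixes this value in advance, so it restates the lack of overlap and adds no further evidence. Dnmt1, Fen1, Gins1, Gins4, Rfc2, Rfc5 and Tyms were not called.

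**Figure D2:**
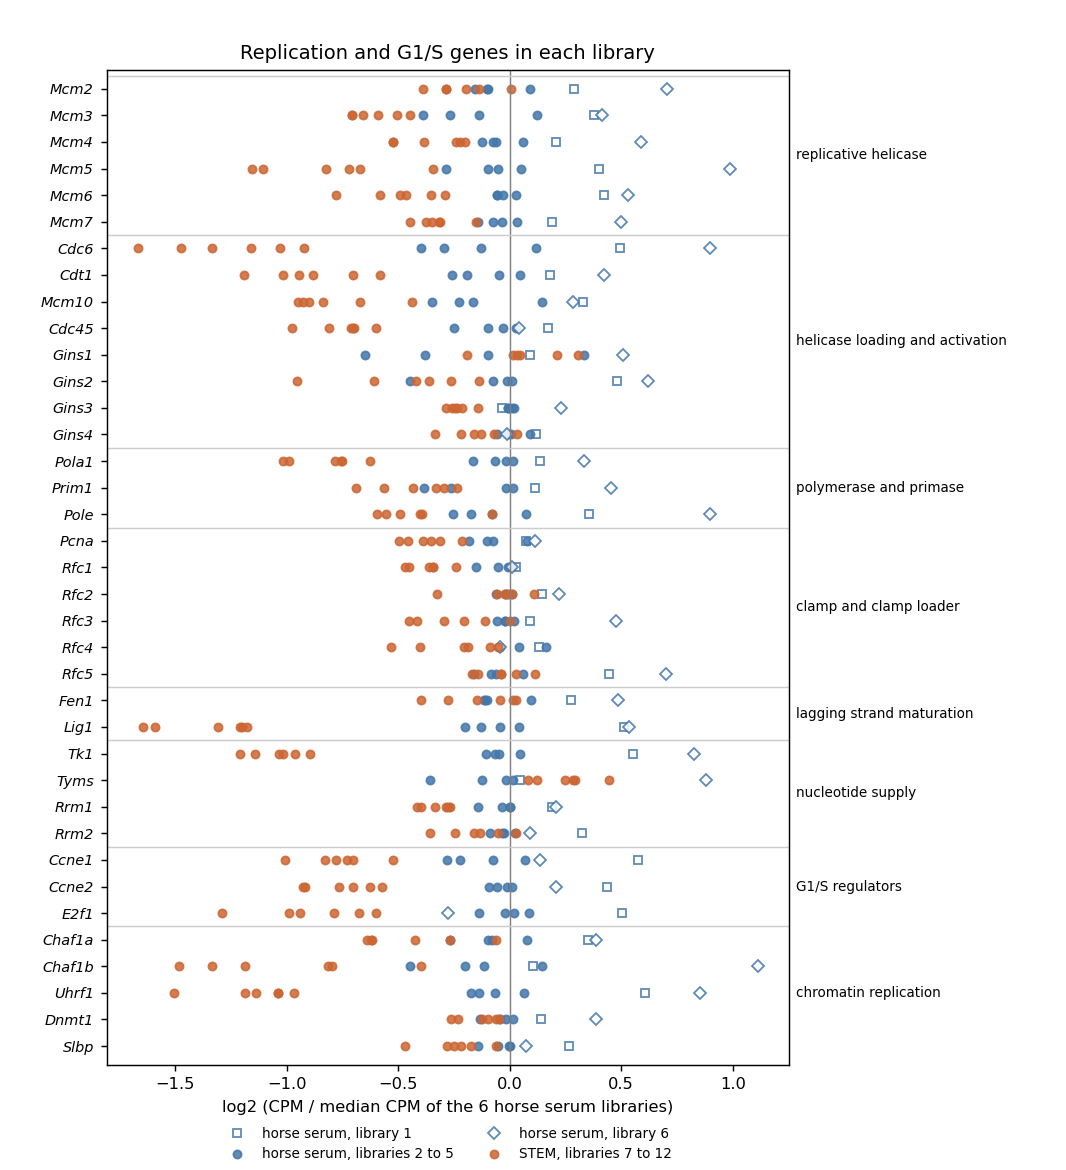
Every library's level of each of the 37 genes, as the log2 of its CPM over the median CPM of the 6 horse serum libraries, with genes grouped by role. STEM libraries (filled orange circles) lie left of every horse serum library (blue) in 21 genes, and the open diamond and open square show horse serum libraries 6 and 1, which are the 2 highest of the horse serum group in 30 genes.

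The 6 subunits of the MCM helicase, which unwinds DNA ahead of the fork, were all lower with STEM, at log2 fold changes between -0.37 and -1.02. Mcm5 fell most. Its level in the horse serum libraries had a lowest value of 16.0, a median of 19.5 and a highest value of 38.7 CPM, and with STEM these were 8.76, 11.4 and 15.4 CPM. The groups did not overlap, and the 2 highest horse serum values were library 6 and, at 25.8 CPM, library 1. The log2 fold change of Mcm5 was -1.02 (SE 0.213, adjusted p = 0.00242, edgeR) and -0.80 without library 6. Mcm6, whose promoter holds 3 E2F-type matches, went from a median of 47.1 CPM (45.2 to 68.0) to 33.8 CPM (27.5 to 38.5), a log2 fold change of -0.64. Mcm3 fell by 0.65 and Mcm4 by 0.47 on the log2 scale, and in both genes the groups again did not overlap. Mcm7 fell by 0.42 on the log2 scale, from 42.8 ± 7.49 to 32.0 ± 2.24 CPM (SD, n = 6). Mcm2 was the exception to the separation of the groups, with 25.5 to 46.4 CPM in horse serum and 21.7 to 28.5 CPM with STEM. Its log2 fold change of -0.37 (adjusted p = 0.0442, edgeR) was -0.23 without library 6. The Mcm2 call held without library 6 but was lost without some other single libraries and with some other settings.

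Of the 8 genes for loading and activating the helicase, 6 were lower with STEM and 2 were not called. Cdc6, the ATPase that recruits MCM to origins, had a lowest value of 2.7, a median of 3.55 and a highest value of 6.61 CPM in horse serum and of 1.12, 1.5 and 1.88 CPM with STEM. Every STEM library was below every horse serum library, and the log2 fold change was -1.42 (SE 0.230, adjusted p = 0.000251, edgeR). Its partner Cdt1 went from a median of 4.05 CPM (3.39 to 5.43) to 2.15 CPM (1.78 to 2.71), a fall of 47.3%. Mcm10, which helps to switch on the loaded helicase, fell by 42.4% from 4.505 ± 0.884 to 2.58 ± 0.376 CPM. Cdc45 had little spread within the groups, at 12.9 to 17.3 CPM in horse serum and 7.81 to 10.1 CPM with STEM. Its log2 fold change of -0.73 (SE 0.084, adjusted p = 1.46e-05) was -0.71 without library 6.

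The 4 subunits of the GINS complex, which work as a single unit in the helicase, had log2 fold changes from -0.58 to 0.03, and differences between them were not tested. Gins2 and Gins3 were lower with STEM, at log2 fold changes of -0.58 (95% interval -0.96 to -0.20) and -0.27 (-0.41 to -0.13). Gins4 had a log2 fold change of -0.17 and missed the threshold with all libraries (adjusted p = 0.0503, edgeR), while it passed without library 6 (adjusted p = 0.0272). Gins1 had a horse serum median of 3.02 CPM (1.93 to 4.30) and a STEM median of 3.11 CPM (2.65 to 3.74). The STEM range lay within the horse serum range, and the interval of its log2 fold change, -0.35 to 0.41, overlapped that of Gins2.

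Polymerase and primase genes were lower in all 3 cases. Pola1, the catalytic subunit of polymerase alpha that extends the RNA primer, gave the clearest separation of the 3. It had a lowest value of 31.0, a median of 34.8 and a highest value of 43.8 CPM in horse serum and of 17.2, 20.4 and 22.5 CPM with STEM, so that the groups lay far apart. Its log2 fold change was -0.86 (SE 0.088, adjusted p = 4.51e-06, edgeR), and -0.80 without library 6. Prim1, the catalytic primase subunit, fell by 26.1%, and Pole, the catalytic subunit of the leading strand polymerase, by 34.7%, both with overlap between the groups. In Pole the highest horse serum value (29.2 CPM) was library 6 and the highest STEM value (14.8 CPM) was library 11.

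Pcna, the sliding clamp, fell by 21.8%, from a median of 73.4 CPM (64.8 to 79.4) to 56.7 CPM (52.0 to 63.4). The change was modest, but every STEM library was below every horse serum library (log2 fold change -0.36, SE 0.062, adjusted p = 0.000439, edgeR). The clamp loader RFC, which opens PCNA around DNA, has 5 subunits, of which 3 were lower. Rfc1, the large subunit, fell by 21.05% from 66.9 ± 3.04 to 52.8 ± 3.08 CPM, with little spread in either group. Rfc3 fell by 20.6% and Rfc4 by 17.2%, though the Rfc4 call was lost when some single libraries were left out. Rfc2 and Rfc5 had log2 fold changes of -0.09 (95% interval -0.25 to 0.06) and -0.23 (-0.52 to 0.06), and their groups overlapped. Without library 6 these values were -0.06 and -0.09, and neither was called.

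Of the pair of genes for lagging strand maturation, Lig1 was lower with STEM and Fen1 was not called. Lig1, the ligase that seals Okazaki fragments, lies at chr7:13277283-13311433 and had the largest fall of the 37 genes. Its lowest, median and highest values were 12.7, 14.6 and 21.2 CPM in horse serum and 4.67, 6.10 and 6.45 CPM with STEM. The highest STEM value was below the lowest horse serum value by a wide margin, and horse serum libraries 1 and 6 were the highest of their group. The log2 fold change was -1.49 (SE 0.146, adjusted p = 3.25e-06, edgeR) and -1.39 without library 6. Fen1, the flap nuclease that trims the fragments before ligation, had 18 to 27.4 CPM in horse serum and 14.8 to 19.9 CPM with STEM, with a log2 fold change of -0.24 that was not called (adjusted p = 0.109) and was -0.15 without library 6.

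Among the 4 genes of nucleotide supply, the salvage enzyme Tk1 and the synthesis enzyme Tyms, both of which make thymidine monophosphate, lay at opposite ends. Tk1, thymidine kinase, had a lowest value of 21.5, a median of 23.2 and a highest value of 41.1 CPM in horse serum and of 10.04, 11.4 and 12.5 CPM with STEM. The STEM libraries were all at about the same level, and the fall was 59.1% (log2 fold change -1.29, SE 0.158, adjusted p = 3.63e-05, edgeR). Tyms, thymidylate synthase, had 12.3 to 16.2 CPM in horse serum libraries 1 to 5, 28.9 CPM in library 6 and 16.6 to 21.4 CPM in the STEM libraries. With all libraries its log2 fold change was 0.11 (SE 0.168, adjusted p = 0.646). Without library 6 every STEM library was above every horse serum library, and Tyms was higher with STEM by 0.33 on the log2 scale (SE 0.082, adjusted p = 0.00259). The result for Tyms therefore rests on 1 library. Rrm1 and Rrm2 encode the large and small subunits of ribonucleotide reductase, which makes deoxynucleotides. Rrm1 fell by 22.6% from 147 ± 14.0 to 114 ± 5.06 CPM without overlap. Rrm2 went from 133 ± 14.3 to 116 ± 10.9 CPM with overlap. Its call (adjusted p = 0.0443, edgeR) was lost without library 6 (adjusted p = 0.0594, edgeR). The Rrm2 call was also lost without some other single libraries and with some other settings.

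The 3 regulators of the G1/S passage in the set were lower with STEM, each without overlap between the groups. E2f1, the founding activator of the E2F family, had a lowest value of 6.92, a median of 8.37 and a highest value of 11.9 CPM in horse serum and of 3.42, 4.61 and 5.52 CPM with STEM. It was the only one of the 37 genes whose lowest horse serum value was in library 6, and its log2 fold change was -0.91 (SE 0.141, adjusted p = 0.00018, edgeR) with that library and -0.97 without it. Ccne1 and Ccne2, the E cyclins that activate Cdk2 at the start of S phase, had log2 fold changes of -0.82 and -0.83. Ccne1 went from 5.87 to 10.6 CPM in horse serum to 3.55 to 4.97 CPM with STEM, and Ccne2 from 9.65 to 13.9 CPM to 5.42 to 6.93 CPM.

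Of the 5 genes grouped under chromatin replication, 4 were lower. Uhrf1, which reads hemimethylated DNA and brings the maintenance methyltransferase to it, had a lowest value of 19.0, a median of 21.4 and a highest value of 38.6 CPM in horse serum and of 7.54, 10.1 and 10.97 CPM with STEM. The groups were widely separated, at a log2 fold change of -1.38 (SE 0.182, adjusted p = 7.14e-05, edgeR). Dnmt1, the methyltransferase itself, went from 55.9 ± 7.52 to 48.5 ± 3.001 CPM and was not called (log2 fold change -0.20, and -0.13 without library 6; adjusted p = 0.0522), though some alternative settings called it. Chaf1a and Chaf1b, subunits of the assembly factor CAF-1 that places new histones, fell by 29.9% and 55.2%. In Chaf1b the horse serum libraries 1 to 5 had 3.74 to 5.63 CPM, library 6 had 11.02 CPM and the STEM libraries had 1.83 to 3.87 CPM, and the log2 fold change of -1.16 was -0.86 without library 6. Slbp, which binds the stem-loop at the end of histone messages, fell by 16.9%.

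**Figure D3:**
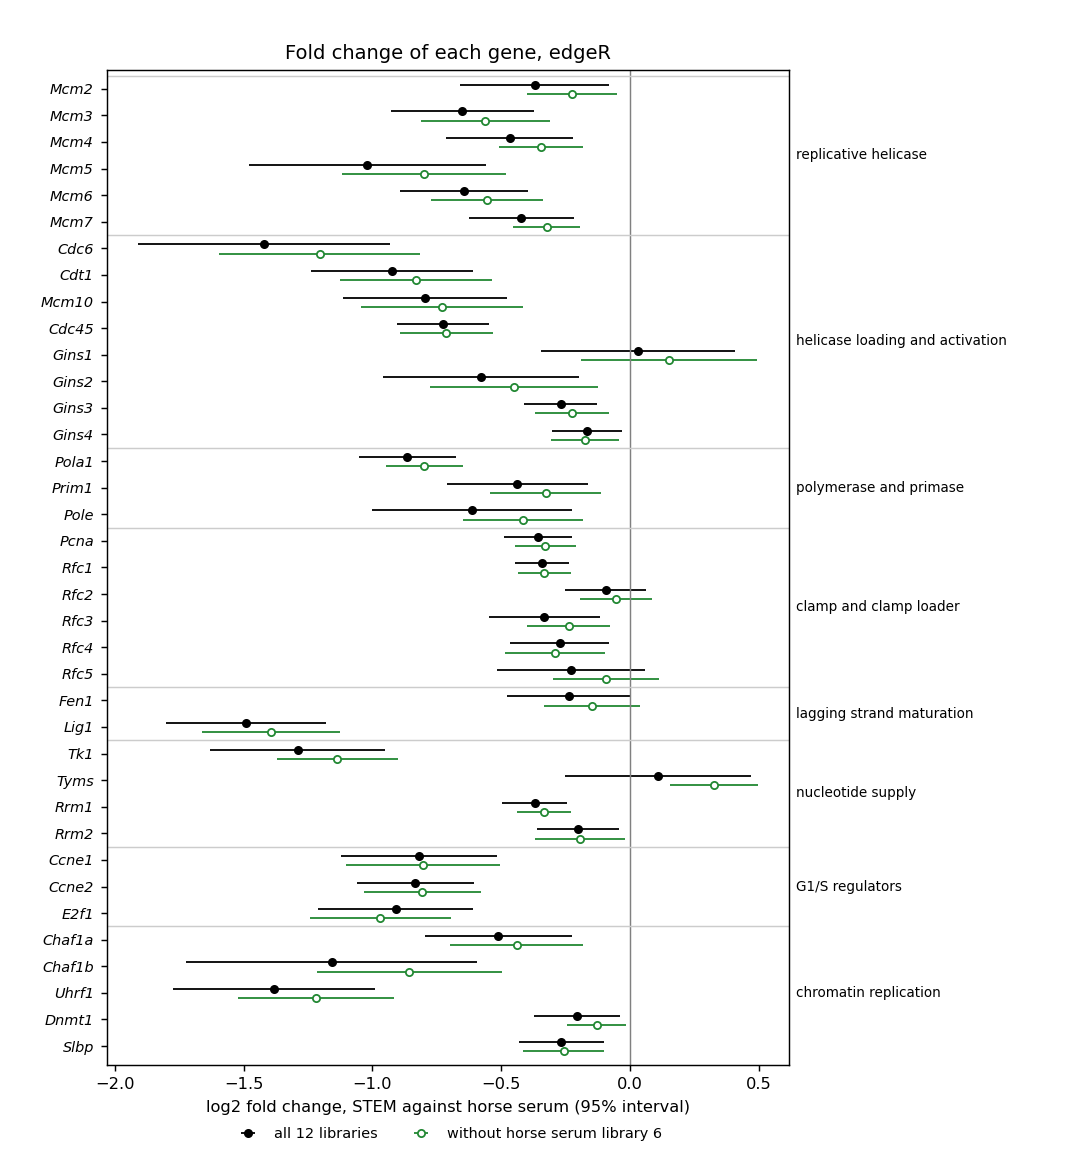
Log2 fold change of each gene, STEM against horse serum, with its 95% interval from edgeR, with all 12 libraries (filled black) and without horse serum library 6 (open green). The intervals of 30 genes called lower lie left of 0 with all libraries, as do those of Gins4, Dnmt1 and Fen1 before adjustment, and Tyms moves from 0.11 to 0.33 when library 6 is left out.

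Leaving out horse serum library 6 made 32 of the falls smaller while few calls changed. Without it, 30 genes were again lower, 29 of them shared with the comparison of all libraries, and Tyms was the 1 gene higher. Among all 14267 genes then tested, 24.5% were lower and 26.3% higher, so that the background of calls also rose. The median log2 fold change of the 37 genes was -0.35, a level 21.3% lower. In 21 genes every STEM library lay below horse serum libraries 1 to 5, against 16.5% of all genes tested. Library 6 was the highest of the horse serum libraries for 27 of the 37 genes and library 1 for 9. The median coefficient of variation of the genes was 19.4% over the 6 horse serum libraries, 13.3% over libraries 1 to 5 and 10.3% over the STEM libraries. It was larger with horse serum than with STEM in 33 genes, and in 25 genes when only horse serum libraries 1 to 5 were used. With horse serum libraries 2 to 5 only, a choice made after these values were seen, 27 genes were lower and the median was -0.31.

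Levels of different genes were compared as CPM per kb of exon. The length counts every annotated exon of all transcripts of a gene, used or not in these cells, so the order of the genes depends on it. In horse serum the highest was Rrm2 at 48.1 ± 5.17 CPM per kb and the lowest Mcm10 at 0.586 ± 0.115 CPM per kb. Within the MCM ring, where the subunits stand in equal number in the protein, the most and least abundant RNA differed by 2.48 times in horse serum and 2.54 times with STEM. In horse serum the highest means were those of Mcm6 (11.3 ± 2.19 CPM per kb) and Mcm7 (9.67 ± 1.69). The lowest were those of Mcm5 (5.75 ± 2.10) and Mcm2 (4.55 ± 1.15). Mcm6 lay above Mcm7, and Mcm5 above Mcm2, in every horse serum library. With STEM the highest means were those of Mcm7 (7.24 ± 0.506) and Mcm6 (7.21 ± 0.841), and the lowest those of Mcm2 (3.53 ± 0.346) and Mcm5 (2.85 ± 0.604). Mcm2 lay above Mcm5 in every STEM library, the reverse of their order in horse serum, while the order of Mcm6 and Mcm7 differed between STEM libraries. The place of Mcm2 rests on its length of 6956 bases, against 3993 for Mcm5. Before division by length, its mean was above that of Mcm5 in horse serum (31.7 and 23.0 CPM) and with STEM (24.6 and 11.4 CPM). These differences between genes were not tested. The GINS subunits were less alike. Gins4 had 21.1 ± 0.992 CPM per kb in horse serum and 18.8 ± 1.64 with STEM, while Gins1 had 2.02 ± 0.590 and 2.11 ± 0.251.

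**Figure D4:**
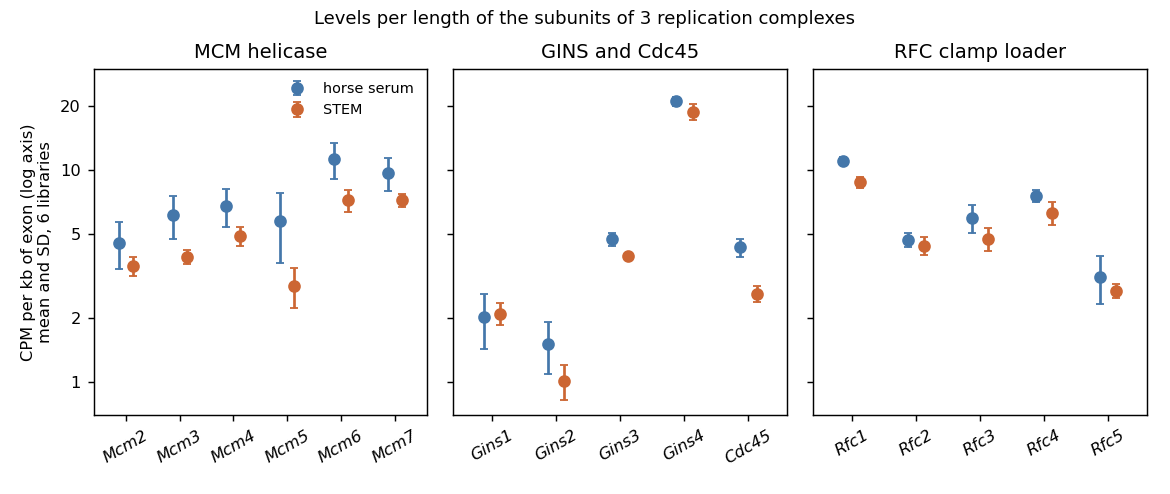
Mean and SD of 6 libraries of CPM per kb of exon, on a log axis, for the subunits of the MCM helicase, of GINS with Cdc45 and of the RFC clamp loader, in horse serum (blue) and STEM (orange). All MCM subunits, Cdc45 and all RFC subunits have a lower mean with STEM, Gins4 stands above the other GINS subunits at 21.1 and 18.8, and Gins1 has about the same mean in both groups.

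Other genes of the same pathways, 95 in 6 lists, were read from the same fit. Of the 94 tested, 43 were lower (45.7%), 8 were higher and 43 were not called. Among 25 other fork proteins 15 were lower and 0 higher, including Clspn, the checkpoint adaptor Claspin (11.1 ± 1.79 to 5.38 ± 0.566 CPM, log2 fold change -1.05), Pold2, a subunit of polymerase delta (-0.58), and Rnaseh2a, the catalytic subunit that removes RNA from DNA hybrids (-0.39). Among 12 other genes of replication-coupled chromatin 8 were lower and 0 higher, including the histone chaperone Asf1b (39.5 ± 8.38 to 19.7 ± 2.44 CPM), the histone methyltransferase Ezh2 (-0.53) and Rbbp4 (-0.23), a histone-binding subunit of CAF-1. Of 15 genes of origin recognition and firing 3 were lower, namely the initiation scaffold Topbp1 (-0.49), Gmnn (-0.48), which encodes the Cdt1 inhibitor geminin, and Dbf4, the activator of the Cdc7 kinase (-0.47, and -0.30 without library 6), while 12, the 6 origin recognition subunits among them, were not called. A share of 3 in 15 is near the 17.4% of all genes tested.

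The remaining lists held calls in both directions. For nucleotide supply 35.7% were lower and 21.4% higher, for E2F and pocket proteins 33.3% and 25%, and for the cyclins, CDKs and inhibitors described next 50% and 12.5%, beside 17.4% lower and 18.9% higher among all genes tested. The shares lower were above that of all genes and the shares higher near it. Of 14 other genes of nucleotide supply 5 were lower, led by the purine synthesis enzyme Paics (-0.39), the deoxynucleotide hydrolase Samhd1 (-0.49) and deoxycytidine kinase, Dck (-0.62). Another 3 were higher, the one-carbon enzyme Mthfd1 (0.38), the purine synthesis enzyme Gart (0.30) and the pyrimidine synthesis enzyme Cad (0.53). Of 12 other E2F and pocket protein genes 4 were lower and 3 higher. The lower ones included the E2F partner Tfdp2 (66.7 ± 5.54 to 42.9 ± 2.26 CPM, log2 fold change -0.63) and the pocket proteins Rbl1 (-0.59) and Rbl2 (-0.22). The higher ones were E2f4 (0.39), E2f8 (0.36) and Rb1 (0.19), the retinoblastoma protein. Without horse serum library 6 the genes higher with STEM numbered 5 in the nucleotide list, 3 in the E2F list, 4 among the cyclins, CDKs and inhibitors, and 2 among the fork proteins, beside 26.3% of all genes then tested.

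Of 16 tested genes for cyclins, CDKs and inhibitors of G1/S, 8 were lower and 2 higher, against 17.4% and 18.9% of all genes tested. Cdkn2a had 0 counts in all libraries. Ccnd1, the cyclin D that answers to mitogens, had a lowest value of 50.7, a median of 66.1 and a highest value of 84.3 CPM in horse serum and of 15.6, 17.3 and 19.6 CPM with STEM. Ccnd1 fell by 72.9% (log2 fold change -1.88, SE 0.117, adjusted p = 9.48e-08, edgeR), more than any of the 37 genes. Cdkn1c, the CDK inhibitor p57, had 25.8, 31.9 and 41.0 CPM in horse serum and 93.9, 114 and 144 CPM with STEM, also without overlap (log2 fold change 1.85, SE 0.1198, adjusted p = 2.02e-07, edgeR). The inhibitors did not move together. Cdkn1a, which encodes p21, was higher by 0.19 on the log2 scale, while Cdkn1b, which encodes p27, and Cdkn2c, which encodes p18, were lower, at -0.63 and -0.68.

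**Figure D5:**
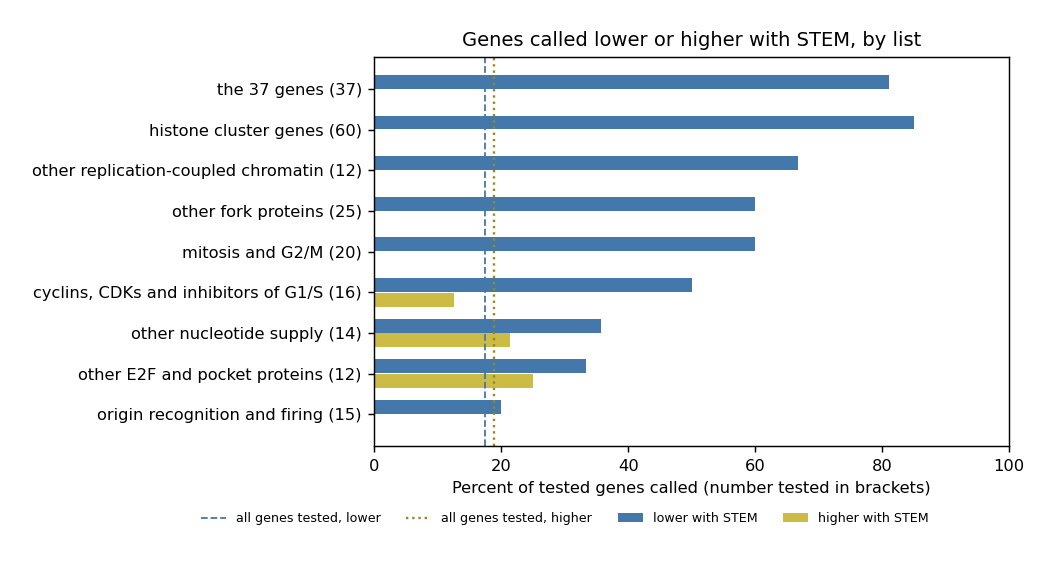
Percent of tested genes called lower (blue bars) or higher (yellow bars) with STEM in each list, with the number tested in brackets, beside the shares of all 14175 genes tested, 17.4% lower (dashed line) and 18.9% higher (dotted line). The 37 genes reach 81.1% lower and 0% higher, and origin recognition and firing stays near the background with 3 of 15.

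Markers of the cells that such a culture can hold were measured beside these genes. Of 12 myotube markers, Myog (-0.29) and Myh8 (-1.25) were lower, Mymk (0.36) was higher and 9 were not called, shares of 16.7% lower and 8.33% higher that do not exceed the 17.4% and 18.9% of all genes tested. Without horse serum library 6, 8 of the 12 were lower and 1 higher, beside 24.5% and 26.3% of all genes. Of 10 markers of myoblasts and reserve cells, the unfused cells of a C2C12 culture, Cd34 (-0.75), Spry1 (-0.63), Sdc4 (-0.89) and Myf5 (-0.42) were lower, Cdh15 (0.46), Id1 (0.63) and Id3 (0.72) were higher, and Pax7, Myod1 and Heyl were not called. These shares are 40% lower and 30% higher. Their summed level was 829 to 901 CPM in horse serum and 830 to 879 CPM with STEM, with Cdh15 the most abundant. Fibroblast markers summed to 19.4 to 31.4 CPM in horse serum and 29.2 to 34.1 CPM with STEM, with Pdgfra the most abundant. Of the 3 fibroblast markers tested Dpt (1.10) was higher, joined without horse serum library 6 by Pdgfra (0.41 with all libraries and 0.67 without), Dcn was not called (-0.13 and -0.25), and Thy1, Lum and Tcf21 were at or near 0. The 6 macrophage markers summed to 2.31 to 5.77 CPM over all libraries, of which Cd68 was most abundant, while Adgre1 was at 0 in every library and Ptprc at or near 0. Csf1r, too low to be tested with all libraries, had 0.288 ± 0.198 CPM in horse serum and 0.917 ± 0.314 CPM with STEM. The share of counts on mitochondrial genes was 3.72% to 4.21% in horse serum libraries 1 to 5, 2.43% in library 6 and 2.54% to 3.29% with STEM. Whether a different share of unfused cells or the mitochondrial share had a part in the lower replication genes was not tested.

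The libraries were made with a stranded kit, but whether reads were counted by strand is not given in the sources used here. The exons of 10 of the 37 genes (Ccne2, Cdc45, Chaf1a, Fen1, Gins2, Lig1, Mcm7, Rfc4, Rfc5 and Tk1, of which 8 were lower) overlap a gene on the other strand that had at least 10% as many counts, and the values of these 10 could hold reads of that neighbour if strand was not used. Reads of Pcna may also be divided with its processed pseudogene Pcna-ps2, which had up to 240 counts in a library.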

How the data were processed

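Total RNA of C2C12 myotubes was made into stranded libraries depleted of ribosomal RNA and sequenced in paired reads. The authors deposited whole-number counts of reads per Ensembl gene, without normalization. The submitters' processing notes name STAR 2.7.3a, featureCounts 1.6.3, DESeq2 1.26.0 and build GRCm38. The annotation release and strand setting are not given in the sources used here. Groups were taken from the sample titles, and 0 columns were left unassigned. Symbols, lengths and coordinates came from GENCODE M21, which held 55227 of 55487 listed genes, and 0.00268% of counts lay outside it. Median totals were 15533472 counts with horse serum and 15740424 with STEM. Pairs of libraries of 1 group differed beyond sampling noise (chi-square over its degrees of freedom from 3.29 to 18.8, and 56.1 to 68.5 in the pairs that hold horse serum library 6).

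Counts were tested with edgeR 4.0.16 in R 4.3.3 (glmQLFit with robust estimation, glmQLFTest, TMM, filterByExpr), and genes were called at a Benjamini-Hochberg adjusted p of 0.05 or less. Log2 CPM used a prior count of 2. The SE is the absolute log2 fold change over the square root of F. Alternatives were other scalings and filters, DESeq2 1.42.0, limma-voom (limma 3.58.1), glmTreat against a 1.2-fold change, an adjusted p of 0.01, thinning to the lowest total and leaving out each library. The 37 genes and the other lists were chosen with earlier results of these data known, and the histone list was added after the values were seen. The text names all 37 genes, at most 3 called genes per pathway list and direction by lowest p, and marker genes. On simulated counts of this comparison with 14175 genes, edgeR recovered 68 of 100 genes changed 1.5-fold and 87 of 100 changed 2-fold, and 7.19% of what it called was false. For DESeq2 these values were 72, 91 and 14.2%, and for limma-voom 68, 89 and 6.55%.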

Additional observations from a re-analysis of the deposited data

Results flagged for a closer look

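In 7 of 80 sets of 6 libraries examined, the highest or lowest library lay apart from the other 5 by a share of the range above Dixon's 95% critical value, which chance alone gives in about 1 set in 20. Horse serum library 6 was that library in 6 of them. For Tyms it had 28.9 CPM against 12.28 to 16.24 CPM in the other horse serum libraries, for Chaf1b 11.02 CPM against 3.74 to 5.634 CPM, for Rfc3 27.98 CPM against 19.37 to 21.45 CPM, and for Gins3 14.66 CPM against 12.2 to 12.66 CPM. The same library had a summed level of 7295 CPM of the 12 myotube markers, against 14423.5 to 15525.5 CPM, and 2.43% of its counts on mitochondrial genes, against 3.718% to 4.205%. The last was Pole in STEM library 11, at 14.81 CPM against 10.36 to 11.94 CPM in the other STEM libraries. What set these libraries apart was not tested.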

How the results depend on the processing

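Between 27 and 32 of the 37 genes were lower with STEM under the other scalings (28 to 32), filters (29 to 32), DESeq2 (32), limma-voom (29), thinning (30), horse serum libraries 2 to 5 only (27) and each library left out in turn (27 to 30). At an adjusted p of 0.01 the number was 22, and 15 genes were called, all 15 lower, when glmTreat asked for more than a 1.2-fold change, a stricter question by construction. Genes called higher were 0 to 1 with a library left out, the 1 being Tyms without horse serum library 6, and 1 with horse serum libraries 2 to 5 only. The median log2 fold change lay between -0.51 and -0.35 with a library left out and between -0.52 and -0.31 otherwise. The median of all genes, 0.0121, was between -0.00817 and 0.0311 with the other scalings and -0.0118 with no filter. Calls close to the threshold were lost when a library was left out for Mcm2 (without horse serum library 1 or 4 or STEM library 7, 8, 9, 11 or 12), Rrm2 (horse serum 1, 2, 5 or 6, or STEM 8, 9, 10 or 12) and Rfc4 (horse serum 1 or 2, or STEM 7 or 11). Mcm2 also lost it with total counts, no filter, limma-voom and horse serum libraries 2 to 5 only, Rrm2 with these except no filter, Pole with no filter (adjusted p = 0.0622, edgeR) and Gins2 with horse serum libraries 2 to 5 only (adjusted p = 0.0947, edgeR). Dnmt1 and Gins4, not called with all libraries, were called lower with DESeq2's size factors, upper quartile scaling, at least 10 counts in every library and DESeq2, Dnmt1 also with no filter and without horse serum library 5 or STEM library 7, and Gins4 also with limma-voom and without horse serum library 6 or STEM library 9. The sign of Gins1, never called, turned on thinning (-0.036) and ranged from -0.064 to 0.15 with a library left out, and that of Rfc5 turned with horse serum libraries 2 to 5 only (0.022), and the cause was not tested. No paired analysis was possible because the groups share no replicate numbers. Depth limits the least expressed genes, with as few as 17 counts in a library.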

Other observations

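Of 20 genes of mitosis and G2/M, 12 were lower with STEM, 0 higher and 8 not called, against 17.4% lower and 18.9% higher among all genes tested, and the median log2 fold change was -0.48. Aurkb, a kinase of the chromosomal passenger complex, went from 26.9 ± 5.93 to 14.8 ± 1.97 CPM (SD, n = 6), Nusap1, a spindle protein, from 44.7 ± 8.21 to 30.8 ± 2.11 CPM, and Cdk1, the kinase that drives entry into mitosis, from 75.7 ± 15.2 to 49.3 ± 4.59 CPM. Not called were the B cyclins Ccnb1 and Ccnb2 (log2 fold changes -0.14 and -0.19), Plk1 (-0.46), Cenpe (-0.29), Cenpf (-0.27), Kif20a (-0.11), Cdc20 (-0.26) and Ube2c (-0.33). Without horse serum library 6, again 12 were lower and 0 higher, and the same 8 were not called. Their values were then 0.07 for Ccnb1, 0.02 for Ccnb2, -0.18 for Plk1, -0.07 for Cenpe, -0.12 for Cenpf, 0.14 for Kif20a, -0.05 for Cdc20 and -0.17 for Ube2c.

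Of 60 tested genes of the histone clusters, whose messages are bound by Slbp, 51 were lower and 0 higher, with a median of -0.79, against the same 17.4% and 18.9%. In 44 of the 60 every STEM library lay below every horse serum library, as in 8.52% of all genes tested. This list was added after the values were seen, and its near-identical members can share reads, so single histone genes are not given.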
